A study of Mus musculus with 50 samples.

Results

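Gdf3 encodes growth differentiation factor 3, a secreted ligand of the TGF-beta family. It was described here as 1 gene of the 33924 measured, and it was chosen because its counts were far lower in LSK and GMP of Flt3 mutant mice than in those of wild-type (WT) mice. The values of Flt3 against WT are therefore given as a description, with no test. The other comparisons used contrasts that did not choose the gene. Those within the WT and Flt3 groups still used libraries that had entered the choice. RNA was counted in 50 libraries of mouse blood-forming cells in 16 groups. LSK are lineage-negative, Sca-1-positive, Kit-positive marrow cells, which hold the stem cells, and GMP are granulocyte-monocyte progenitors.

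The groups of the first count table were Flt3 LSK and Flt3 GMP at 2, 4, 6 and 8 weeks, with 3 libraries each, and WT LSK and WT GMP at 4 weeks, with 3 libraries each. The second table held Npm1 Flt3 LSK and GMP with 4 libraries each, Dnmt3a Flt3 LSK and GMP with 3 libraries each, and, in 3 libraries per arm, lineage-negative cells from Npm1 Flt3 mice given tamoxifen (TAM) or vehicle for 7 days. Every group of the second table carried the Flt3 mutation, and per the labels tamoxifen served to delete it. Cre, Dre or Flp recombinases switched the mutations on. The promoter of each recombinase, the ages of the mice and what the weeks were counted from are not given in the labels used here, and no label says that libraries of a group came from separate mice. The p-values below thus measure the spread between libraries, which may be technical.

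TGF-beta family ligands are made as precursors that proprotein convertases cut. The mature dimers bind pairs of type I and type II receptors on the cell surface, which phosphorylate Smad proteins, and these enter the nucleus with Smad4 and switch genes on or off. Gdf3 is best known from pluripotent stem cells and the early embryo, where it acts in Nodal-like signalling through activin-type receptors and the co-receptor Cripto, the product of Tdgf1, and can bind and hold back BMPs. The gene also has described roles in fat tissue and in macrophages.

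In the mouse genome build GRCm38 (mm10), Gdf3 (ENSMUSG00000030117.5) lies on the minus strand of chromosome 6, from base 122605403 to base 122610087. Its coding transcript has 2 exons. Exon 1 (122609696 to 122610087) holds the 5′ UTR and the first part of the coding sequence, and exon 2 (122605403 to 122607135) holds the rest of the coding sequence and a 3′ UTR of 906 bases. The annotation also lists 1 noncoding transcript of the gene, and 0 other genes overlap it. The nearest coding gene, Apobec1, lies 2378 bases away on the same strand, and Nanog and Dppa3, known like Gdf3 from pluripotent cells, lie 97401 and 16336 bases away.

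Libraries of the first table held 306571 to 8249135 counts, apart from 1 Flt3 8-week GMP library with 1942 counts, which stayed in the fits and is left out of all values per library. Libraries of the second table held 15053592 to 128057407 counts, so the tables are set side by side and not compared. Markers of the sorts were present: the 10 genes of the LSK list summed to 1783 to 1924 CPM (counts of a gene per 1000000 counts of its library) in WT LSK and to 614 to 725 CPM in WT GMP, and the 10 neutrophil granule genes to 3067 to 4715 CPM in WT LSK and to 45607 to 55729 CPM in WT GMP. The 2-week Flt3 libraries stood apart. Their GMP held 63831 to 78213 CPM of 11 mast cell, basophil and eosinophil genes, against 2816 to 4167 CPM in WT GMP, and their LSK held 5897 to 15626 CPM of 9 lymphocyte and plasma cell genes, against 945 to 1258 CPM in WT LSK. Results on Gdf3 that rest on them are given with and without them.

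Gdf3 was close to absent from established Flt3 mutant LSK. In Flt3 LSK it stood at 4.84, 7.23 and 12.8 CPM at 2 weeks, at 1.34, 0.936 and 0 CPM at 4 weeks, at 0 CPM in all 3 libraries at 6 weeks, and at 0.379, 0 and 3.26 CPM at 8 weeks. The WT LSK libraries, all taken at 4 weeks, stood at 129, 96.4 and 56.1 CPM. Each of the 12 Flt3 libraries was below each of the 3 WT libraries, and the value of 3.26 CPM is a single count in the shallowest library. Summed over libraries, Gdf3 had 28 counts at 2 weeks, 3 at 4 weeks, 0 at 6 weeks and 2 at 8 weeks in Flt3 LSK, against 593 counts in WT LSK.

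Relative to the summed library totals, Flt3 LSK at 2 weeks held 11.2-fold less Gdf3 than WT LSK (95% counting interval 7.65 to 17.0). At 4 weeks, the only time with both genotypes, it held 177-fold less, with a wide interval of 60.1 to 859, since it rests on 3 counts. At 6 weeks 0 counts over the 3 libraries allow at most 0.559 CPM (3 counts of their summed total), against 94.7 CPM over the summed WT LSK libraries. These intervals and floors cover counting error only. The edgeR fit put the mean of the 4 Flt3 groups at a log2 fold change of -6.93 ± 0.39 (SE) against WT LSK, and at -8.26 ± 0.46 without the 2-week libraries. Both depend on the prior count of the fit, since the 6-week group is at 0. Of all genes tested in this comparison, 15.0% passed the threshold, an adjusted p of 0.05, with 6.89% higher and 8.07% lower. Since Gdf3 was chosen on it, nothing is read from this.

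The picture in GMP was similar in kind. In Flt3 GMP, Gdf3 stood at 19.0, 9.61 and 28.7 CPM at 2 weeks, at 5.24, 2.41 and 2.10 CPM at 4 weeks, at 0, 0 and 0.795 CPM at 6 weeks, and at 5.56 and 0 CPM in the usable libraries at 8 weeks. WT GMP libraries stood at 171, 133 and 105 CPM. The 11 Flt3 libraries were all below the 3 WT libraries, and the highest Flt3 value, at 2 weeks, was the one nearest to WT. Flt3 GMP at 2 weeks held 5.08-fold less Gdf3 than WT GMP (95% counting interval 4.40 to 5.89), and at 4 weeks 44.5-fold less (21.5 to 111). The 8-week value was 61.0-fold less (26.0 to 189), and all 5 of its counts came from 1 library. The fitted log2 fold change over the 4 Flt3 groups was -5.80 ± 0.30 against WT GMP, and -6.84 ± 0.32 without the 2-week libraries. It was -6.99 ± 0.34 without the 8-week library that held those 5 counts. In this comparison 26.2% of all genes tested passed the threshold, 13.1% higher and 13.2% lower.

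**Figure D1:**
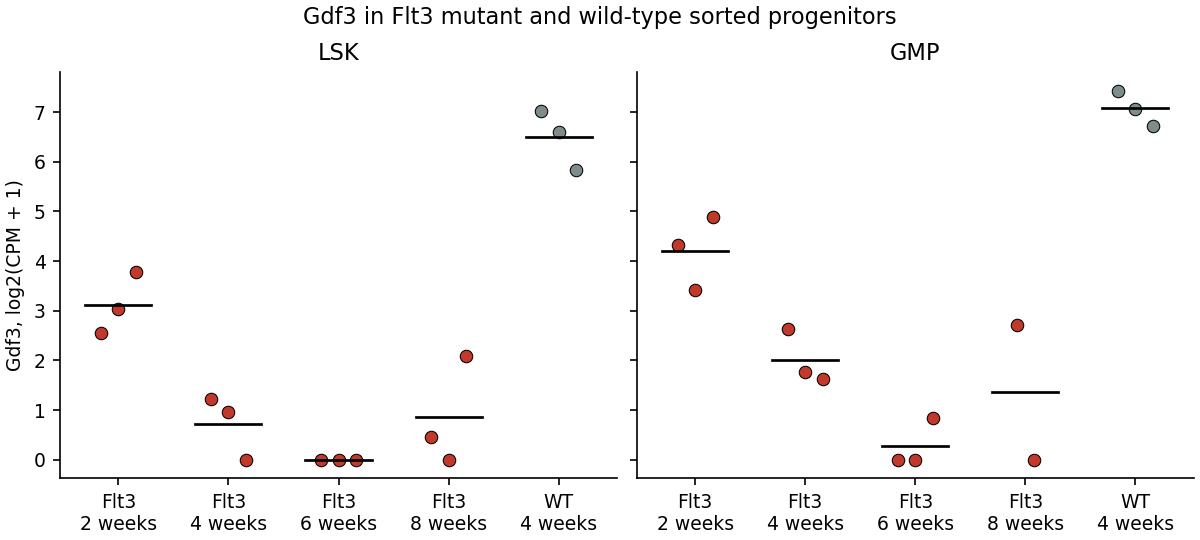
Gdf3 as log2(CPM + 1) in every library with at least 100000 counts, in LSK (left) and GMP (right), by week for Flt3 mice and at 4 weeks for WT mice; points are libraries and lines are group means. All Flt3 libraries lie below the WT libraries, and the 2-week Flt3 libraries lie above those of 4 to 8 weeks.

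Genotype was not the only thing that differed between these groups. Every WT library also has a different series name in its sample code than every Flt3 library. Genotype and code series thus cannot be told apart. Erythroid markers, 9 genes in all, summed to 101 to 405 CPM over the Flt3 LSK groups and to 1495 to 1875 CPM in WT LSK, and 9 of the 9 tested were lower in Flt3 LSK. Of 8 megakaryocyte markers 7 were tested and 7 were lower. Of 14 iron-recycling macrophage markers 11 were tested and 10 were lower, with a summed level of 22.5 to 75.2 CPM in Flt3 LSK and 403 to 2572 CPM in WT LSK. Of 11 mast cell, basophil and eosinophil markers 9 were tested and 7 were lower. Of 10 neutrophil granule markers 9 were tested and 5 were lower. The LSK list itself had 8 of 10 genes lower and 1 higher. It summed to 785 to 1486 CPM in Flt3 LSK and to 1783 to 1924 CPM in WT LSK. Dendritic cell markers, a list that includes Flt3 itself, moved the other way, higher for 11 of 11. Of 9 monocyte markers 3 were higher and 2 lower. In Flt3 GMP, 5 of 5 tested erythroid markers and 7 of 7 neutrophil granule markers were lower than in WT GMP. At 2 weeks the erythroid sum was 219 to 336 CPM in Flt3 GMP and 205 to 295 CPM in WT GMP. In sorted bulk samples, fewer cells that make Gdf3 and less Gdf3 RNA per cell cannot be told apart, and the part of these other cell types in the fall of Gdf3 was not tested.

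Within the Flt3 mice, Gdf3 was lower at 4 to 8 weeks than at 2 weeks in both sorts. In Flt3 LSK the highest of the 9 libraries at 4 to 8 weeks had 3.26 CPM and the lowest of the 3 libraries at 2 weeks had 4.84 CPM. On the log2(CPM + 1) scale the later libraries averaged 0.53 and the 2-week libraries 3.12, a difference of -2.60 (exact two-sided permutation test over libraries, p = 0.00909, the smallest p these groups allow). This test was chosen after the data were seen, and its libraries had entered the choice of Gdf3, so its p is only a description. As CPM summed over libraries, the later Flt3 LSK held 25.0-fold less Gdf3 than the 2-week Flt3 LSK (95% counting interval 9.54 to 83.0).

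In Flt3 GMP the highest of the 8 later libraries had 5.56 CPM and the lowest of the 3 libraries at 2 weeks had 9.61 CPM. The later GMP libraries averaged 1.20 and the 2-week ones 4.21 on the log2(CPM + 1) scale, a difference of -3.01 (exact two-sided permutation test, p = 0.0121, again the smallest possible). Gdf3 as summed CPM was 17.6-fold lower at 4 to 8 weeks (10.1 to 33.4). The filter on low counts had removed Gdf3 from the edgeR fit of this question, so the permutation test was chosen after the data were seen. The same Flt3 libraries had entered the contrast by which Gdf3 was chosen, so this p too is only a description. The basophil and lymphocyte gene sums given above separate the 2-week libraries in the same way. So do other lists in Flt3 GMP at 2 weeks against 4 to 8 weeks. Dendritic cell markers summed to 22860 to 35161 CPM against 1064 to 4935 CPM, and erythroid markers to 219 to 336 CPM against 19.2 to 44.1 CPM. Megakaryocyte markers summed to 569 to 715 CPM against 85.9 to 162 CPM. The LSK list was lower at 2 weeks, at 235 to 465 CPM against 811 to 1030 CPM. The part of these lists was not tested.

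In WT mice Gdf3 stood at 56.1 to 129 CPM in WT LSK against 105 to 171 CPM in WT GMP, with overlapping ranges. The log2 fold change of LSK over GMP was -0.88 ± 0.35 and just missed the threshold (edgeR adjusted p = 0.0529, where 29.6% of all genes tested passed). Relative to the median of all genes, which lay at 0.12 with TMM scaling, the one used throughout, and at 0.35 with median-ratio size factors, it was -1.0 with either scaling. LSK was the lower sort in each of the 3 pairs of libraries whose sample codes share a number. With those codes as a replicate block the difference was -0.93 ± 0.27 (edgeR adjusted p = 0.00608), but the codes were not shown to pair libraries. With DESeq2 and with median-ratio size factors it was -0.65 and did not pass.

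In Flt3 mice the difference between the sorts did not pass the threshold as fitted either. At 2 weeks, with 4.84 to 12.8 CPM in Flt3 LSK against 9.61 to 28.7 CPM in Flt3 GMP, the log2 fold change of LSK over GMP was -1.45 ± 0.48 (edgeR adjusted p = 0.0581, where 7.6% of all genes passed). It was -1.28 ± 0.41 with the code block (edgeR adjusted p = 0.0351), and -1.38 with DESeq2, which did not pass. At 4 to 8 weeks it was -2.13 ± 1.06 (edgeR adjusted p = 0.201, where 15.3% of all genes passed). This rests on 5 counts in LSK and 13 in GMP, with the 6-week LSK at 0, so the fitted value depends on the prior count. No value could be fitted without 6-week GMP library 3 or without 8-week GMP library 1, which holds 5 of the 13 counts.

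A second mutation came with different remnants of Gdf3. The sample codes of the Npm1 Flt3 sorts also carry a different series name than those of the Dnmt3a Flt3 sorts. Genotype and code series thus cannot be told apart here either. Npm1 Flt3 GMP held 3.25, 2.91, 1.66 and 1.67 CPM, whereas Gdf3 had 0 counts in both Dnmt3a Flt3 GMP libraries used, which together held 187157039 counts. In the libraries used, Gdf3 was thus at least 141-fold higher in Npm1 Flt3 GMP than in Dnmt3a Flt3 GMP, counting the Dnmt3a Flt3 group at its floor of 3 counts. The difference passed the threshold (edgeR adjusted p = 0.00445, where 20.8% of all genes tested passed, 12.5% higher and 8.22% lower), in all 4 Npm1 Flt3 libraries. It narrowly missed it with the title number as a replicate block (edgeR adjusted p = 0.0508).

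The third Dnmt3a Flt3 GMP library, left out because its title and its sample code name different sorts, held 4 counts or 0.0519 CPM, also far below every Npm1 Flt3 GMP library. Of the dendritic cell markers, 9 of 11, Flt3 itself among them, were higher in Npm1 Flt3 GMP than in Dnmt3a Flt3 GMP. Their summed levels were 26738 to 55716 CPM and 239 to 251 CPM. Of the monocyte markers, 8 of 9 were higher. The iron-recycling macrophage sum was also higher, and megakaryocyte sums overlapped. Other sums were lower in Npm1 Flt3 GMP than in Dnmt3a Flt3 GMP. Erythroid markers summed to 6.61 to 10.1 CPM against 132 to 142 CPM. Mast cell, basophil and eosinophil markers summed to 319 to 942 CPM against 2140 to 2215 CPM. The LSK, neutrophil granule, lymphocyte and stromal sums were lower as well. Whether any of these cells carry the Gdf3 RNA was not tested.

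In LSK both groups held little Gdf3. Npm1 Flt3 LSK held 1.43, 0.525, 0.805 and 0 CPM, and Dnmt3a Flt3 LSK held 0.0623 and 0 CPM. The Npm1 Flt3 library at 0 had 96823205 counts, which allows at most 0.031 CPM, so this group spans a wide range. Summed CPM was 22.3-fold higher in Npm1 Flt3 LSK than in Dnmt3a Flt3 LSK (95% counting interval 8.60 to 82.5), but the difference between libraries did not pass the threshold (log2 fold change 4.36 ± 2.48, edgeR adjusted p = 0.304, where 11.6% of all genes passed). The Npm1 Flt3 LSK and GMP ranges did not overlap, and summed CPM was 3.28-fold higher in GMP (2.84 to 3.79). The fitted log2 fold change of LSK over GMP, -2.05 ± 1.29, did not pass the threshold (edgeR adjusted p = 0.428, where 4.62% of all genes passed). In Dnmt3a Flt3 mice the comparison of LSK with GMP rests on 4 counts and is not read.

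Gdf3 was higher after tamoxifen in the lineage-negative progenitors of Npm1 Flt3 mice. TAM libraries held 27.5, 1.49 and 27.8 CPM, against 1.17, 0.222 and 0.881 CPM in vehicle libraries. TAM libraries 1 and 3 lay far above all vehicle libraries, while TAM library 2 lay just above the highest of them. The log2 fold change was 3.54 ± 0.77 (edgeR adjusted p = 0.00129), in a comparison where 31.4% of all genes tested passed, 10.1% higher and 21.3% lower. Without vehicle library 2, which has the lowest Gdf3, it was 3.16 ± 1.21 and did not pass (edgeR adjusted p = 0.117).

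Scaling matters in this comparison, because the median log2 fold change of all genes was 0.56 with TMM scaling, 0.30 with median-ratio size factors and 1.64 with library size alone. Among called genes, the higher ones made up 32.1% with TMM scaling and 81.5% with library size alone. Relative to that median, Gdf3 was higher by 2.98 on the log2 scale with TMM scaling, and by 2.98 and 3.02 with median-ratio size factors and with library size alone. TAM libraries were also shallower, with 15053592 to 22654054 counts against 40865360 to 103446979 in vehicle libraries.

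**Figure D2:**
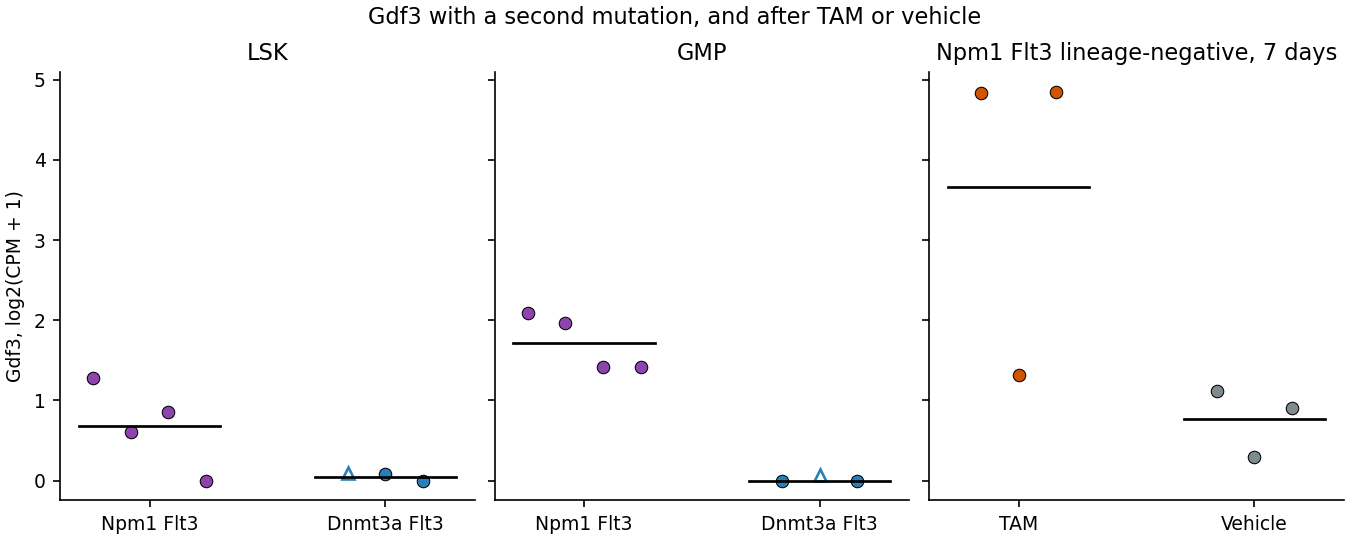
Gdf3 as log2(CPM + 1) in each library of the second table: Npm1 Flt3 and Dnmt3a Flt3 LSK and GMP, and Npm1 Flt3 lineage-negative progenitors after TAM or vehicle. Points are libraries, open triangles are the 2 Dnmt3a Flt3 libraries whose title and code disagree, and lines are means without them; 2 of the 3 TAM libraries stand above all others, near 27.5 and 27.8 CPM.

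The Flt3 transcript checks the labels only in part, because it also marks dendritic cells, and whether the counted exons lie in the deleted stretch is not given in the labels. Flt3 stood at 121, 183 and 83.3 CPM in TAM libraries 1, 2 and 3, against 209, 181 and 160 CPM in vehicle libraries. TAM library 2 had the highest Flt3 and the lowest Gdf3 of the 3 TAM libraries. The change of Flt3 was -1.68 ± 0.39 on the log2 scale (edgeR adjusted p = 0.00126), and -0.50 ± 0.25 with library size alone (edgeR adjusted p = 0.109).

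Marker lists of other cell types moved with TAM as well. Their sums are plain CPM, so they follow library size alone, where the median log2 fold change of all genes was 1.64. A higher sum is thus not by itself a rise relative to most genes. Erythroid markers summed to 1644, 985 and 1406 CPM in TAM libraries 1, 2 and 3, against 4.65 to 18.8 CPM in vehicle libraries, and 9 of 9 were higher. Iron-recycling macrophage markers summed to 1364, 1940 and 1199 CPM in TAM libraries, against 192 to 242 CPM in vehicle libraries, and 10 of 14 were higher. Dendritic cell markers summed to 31899, 40159 and 36753 CPM in TAM libraries, against 2808 to 5708 CPM in vehicle libraries. Of these, 10 of 11 were higher and 1, Flt3 itself, was lower. The LSK list stood at 844, 385 and 854 CPM in TAM libraries, against 496 to 542 CPM in vehicle libraries, and mast cell, basophil and eosinophil genes at 372, 115 and 312 CPM in TAM libraries, against 41.9 to 70.5 CPM in vehicle libraries. TAM library 2, with the least Gdf3, thus had the lowest erythroid, basophil and LSK sums and the highest macrophage and dendritic cell sums among TAM libraries. The part of these cell types in the change of Gdf3 was not tested.

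**Figure D3:**
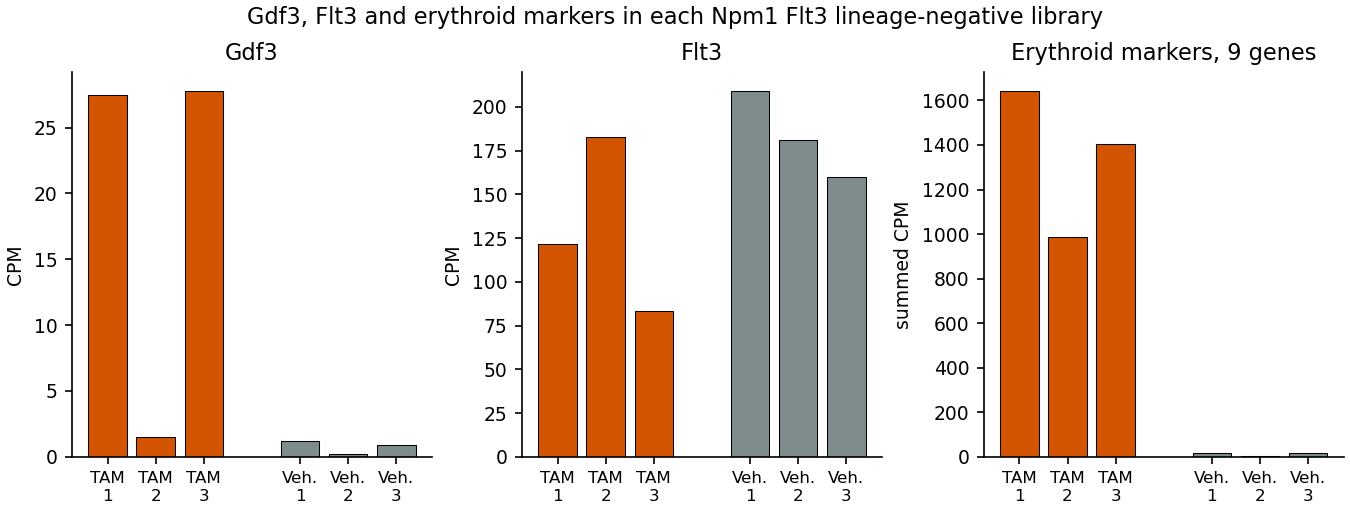
CPM of Gdf3 (left) and Flt3 (middle) and summed CPM of 9 erythroid markers (right) in each Npm1 Flt3 lineage-negative library, TAM libraries 1 to 3 left of vehicle (Veh.) libraries 1 to 3. TAM library 2 has 1.49 CPM of Gdf3 and 183 CPM of Flt3, the lowest and the highest values of the TAM libraries.

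The genes of the pathway around Gdf3 were then counted, in 6 lists with 73 genes besides Gdf3. Of the 23 other ligands, 1, Tgfb1, had enough counts to be tested against WT, and it was not called in either sort. Nodal and Gdf1, which act with the same receptors in the embryo, had 0 counts in all WT and Flt3 libraries. Cripto, encoded by Tdgf1, had 0 CPM in every WT library and at most 0.66 CPM in Flt3 libraries.

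Against WT LSK, 25 of the 73 pathway genes were tested in Flt3 LSK, and 3 were higher and 6 lower, or 36.0% of those tested, where 15.0% of all genes were called. Of 6 receptor genes tested, 2 were lower. Acvr2b, an activin type II receptor, stood at 3.61 to 14.9 CPM in Flt3 LSK against 18.2 to 25.7 CPM in WT LSK (log2 fold change -1.48 ± 0.32, edgeR adjusted p = 0.0013). Of 5 Smad transducer genes, 1 was lower, Smad1, which carries BMP signals (-0.79 ± 0.15). Of 6 inhibitor genes, 2 were lower, among them Smad6, an inhibitory Smad (-2.16 ± 0.53).

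The list of Smad target genes split, with 3 higher and 1 lower of 6 tested. Id1 and Id2, which encode inhibitors of helix-loop-helix factors and are induced by BMP signals in many cells, were higher in Flt3 LSK by 3.47 ± 0.46 and 2.96 ± 0.56 on the log2 scale. Id1 stood at 12.8 to 71.8 CPM in Flt3 LSK against 0 to 3.16 CPM in WT LSK. Cdkn1a, the p21 cell cycle inhibitor gene, was higher too. Besides these named genes, Tgfbr2, Ski and Cdkn1c were lower with all libraries but lost the call when single WT libraries were left out. With the 4-week Flt3 LSK alone, 2 of the 25 genes were higher and 3 lower than in WT LSK (5 of 25, where 10.1% of all genes were called). These were Id1 and Cdkn1a, higher, and Acvr2b, Smad1 and Cdkn1c, lower, while Id2, Smad6 and the other inhibitor genes were not called.

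Against WT GMP, 20 pathway genes were tested in Flt3 GMP, with 7 higher and 0 lower, or 35.0% of those tested, where 26.2% of all genes were called. Acvrl1, a type I receptor that binds BMP9 and BMP10, stood at 3.55 to 36.8 CPM in Flt3 GMP against 0.67 to 1.49 CPM in WT GMP (log2 fold change 2.97 ± 0.56, edgeR adjusted p = 6.1e-05). Id1 was higher by 2.27 ± 0.26 and Id2 by 3.85 ± 0.52. Cdkn1a was also higher, whereas the calls of Ltbp3, Tgfbr1 and Smad4 were lost under 5, 18 and 10 of 22 alternatives, in that order. With the 4-week Flt3 GMP alone, 6 of the 20 genes were higher and 1, Smad5, was lower than in WT GMP (35.0%, where 15.0% of all genes were called). Of all calls in this comparison, 49.8% were higher in Flt3 GMP with TMM scaling and 66.9% with median-ratio size factors.

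**Figure D4:**
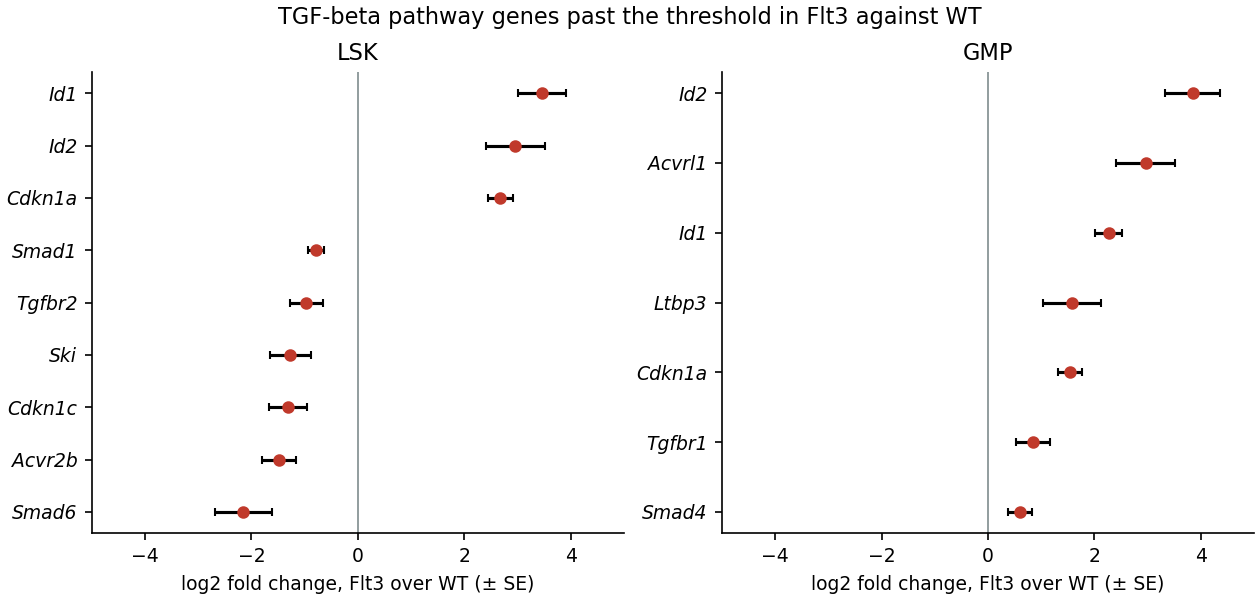
Log2 fold changes (± SE) of the TGF-beta pathway genes past the threshold in Flt3 over WT, in LSK (left, 9 genes) and GMP (right, 7 genes), from the edgeR fits of 15 libraries each. Id1, Id2 and Cdkn1a are higher in Flt3 mice in both sorts, while 6 other genes are lower in LSK.

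After TAM, 69 of the 73 genes were tested, and 11 were higher and 5 lower than after vehicle, or 23.2% of those tested, where 31.4% of all genes were called. Of 21 other ligand genes tested, 5 were higher and 1 lower. The calls of these 6 were each lost when single TAM libraries were left out. Lefty1, an antagonist of Nodal signalling, was among the higher ones, with 2.45 to 13.3 CPM in TAM libraries and 0.27 to 0.74 CPM in vehicle libraries. Its call was lost without TAM library 1.

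Id1 was lower after TAM, at a log2 fold change of -3.64 ± 0.47 (edgeR adjusted p = 1.9e-06), with 9.10 to 19.3 CPM in TAM libraries against 46.5 to 91.5 CPM in vehicle libraries. Cdkn1a was lower as well, at -2.45 ± 0.39. Id2 was higher, by 1.62 ± 0.40 (edgeR adjusted p = 0.00231), a call lost with median-ratio size factors. Id3 was higher by 2.11 ± 0.46, and so was Tgfbr3, the co-receptor betaglycan, by 1.85 ± 0.43. The receptor-activated Smad genes Smad2 and Smad5 were lower with TMM scaling, by log2 fold changes of -1.53 ± 0.37 and -1.34 ± 0.36, but with library size alone their values were -0.30 and -0.14 and did not pass. These calls are relative to the scaling described above.

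Next, the genes with patterns most like that of Gdf3 over the 29 usable libraries of the first table were sought among 9668 genes, by Pearson's r of log2(CPM + 1). The 8 highest were Pf4 (r = 0.931), Ces2g (0.843), S100a9 (0.826), Ptgs1 (0.819), Itm2b (0.818), S100a8 (0.817), Pcp4l1 (0.815) and Mfsd2b (0.814). The libraries share genotype, sort and time, so these values describe group patterns. Pf4, which encodes platelet factor 4, stood at 25.3 to 95.6 CPM in Flt3 LSK at 2 weeks, at 3.26 to 20.04 CPM in Flt3 LSK at 4 to 8 weeks, and at 474 to 750 CPM in WT LSK. S100a8 and S100a9 encode the calprotectin subunits of neutrophils and monocytes, Ptgs1 encodes cyclooxygenase 1, and Mfsd2b a sphingosine-1-phosphate exporter of red cells and platelets.

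**Figure D5:**
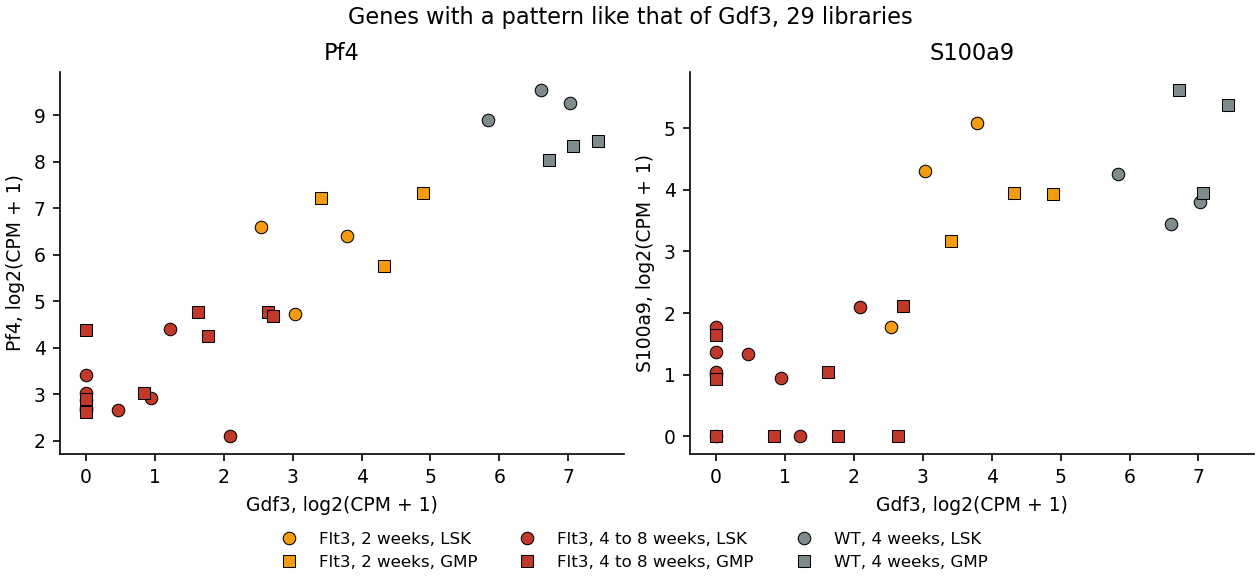
Log2(CPM + 1) of Pf4 (left) and S100a9 (right) against that of Gdf3 in the 29 usable WT and Flt3 libraries; circles are LSK and squares GMP. With r = 0.931 for Pf4 and 0.826 for S100a9, the 2-week Flt3 libraries fall between the later Flt3 libraries and WT.

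The likeness did not carry over evenly to the 20 libraries of the second table, here with the 2 of conflicting code. TAM libraries 1 and 3 held 27.5 and 27.8 CPM of Gdf3, and no other library of that table more than 3.25 CPM. These TAM libraries thus weigh heavily in every r over the second table. There r with Gdf3 was 0.773 for Ces2g, 0.696 for Mfsd2b, 0.675 for S100a9 and 0.667 for S100a8, but 0.514 for Pf4, 0.360 for Ptgs1, -0.065 for Pcp4l1 and -0.517 for Itm2b. After TAM, Ces2g, a carboxylesterase gene, was higher by 3.50 ± 0.50, Mfsd2b by 2.53 ± 0.47, S100a9 by 4.01 ± 0.44 and S100a8 by 4.34 ± 0.46 on the log2 scale, each past the threshold of the edgeR test. S100a9 stood at 269 to 403 CPM in TAM libraries against 6.09 to 10.2 CPM in vehicle libraries. The neutrophil granule list, which includes S100a8 and S100a9, went the other way as a sum. It stood at 2089 to 2720 CPM in TAM libraries against 5189 to 6325 CPM in vehicle libraries. Pf4 had 4.77 to 12.1 CPM in TAM libraries and 1.66 to 4.20 CPM in vehicle libraries, and did not pass (0.65 ± 0.57, edgeR adjusted p = 0.348). Over the second table itself, the highest r among 10897 genes belonged to Il4i1 (0.923), Cd226 (0.883), Zbtb37 (0.877) and Il1b (0.871), for which r over the first table was -0.022, -0.076, 0.317 and 0.486.

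The genes beside Gdf3 on chromosome 6 changed by smaller amounts or were barely counted. Apobec1, the mRNA-editing cytidine deaminase, stood at 10.2 to 39.1 CPM over the Flt3 LSK groups against 43.2 to 69.1 CPM in WT LSK (log2 fold change -1.67 ± 0.27, edgeR adjusted p = 5.9e-05). In Flt3 GMP its change was -0.75 ± 0.27 (edgeR adjusted p = 0.0346), a call lost under 9 of 22 alternatives. After TAM it was higher by 1.14 ± 0.38, with 128 to 233 CPM in TAM libraries and 32.4 to 45.0 CPM in vehicle libraries, and this call was lost under 3 of 12 alternatives. Slc2a3, the glucose transporter gene 117721 bases away, was lower in Flt3 LSK by a log2 fold change of -0.99 ± 0.21, but not in Flt3 GMP (0.27 ± 0.31, edgeR adjusted p = 0.556). Unlike Gdf3, it was lower in Npm1 Flt3 than in Dnmt3a Flt3 mice, by log2 fold changes of -1.69 ± 0.28 in LSK and -1.65 ± 0.37 in GMP. Mfap5, Dppa3 and Nanog reached at most 4.91 CPM in any library of the first table.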

How the data were processed

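The deposited files are 2 tables of raw counts per gene, not normalized by the authors. STAR, featureCounts and the build mm10 are named in the submitters' processing notes; the annotation, strand setting and which libraries were made with the paired-end or the single-end 3′ kit are not given in the sources used here. CPM is a gene's count per 1000000 counts of the library.

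Fits used R 4.3.3 with edgeR 4.0.16: filterByExpr, TMM scaling, robust quasi-likelihood F test, Benjamini-Hochberg adjustment across every gene tested, threshold 0.05. LSK and GMP were fitted apart against WT (15 libraries each), all 30 libraries together for LSK against GMP, 6 for TAM. Alternatives were DESeq2 1.42.0, median-ratio size factors, no filter or 5 CPM, replicate blocks, leaving out each library, and, added after the data were seen, library size alone for TAM. Simulated data with known changes tested the fits. The filter removed Gdf3 from the fits of 4 to 8 against 2 weeks, so an exact permutation test replaced them. The 2 Dnmt3a Flt3 libraries with conflicting title and code were left out. Counting intervals are exact at 95%.

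Gdf3 and the lists were chosen with earlier results of these data known. Named were Gdf3, Flt3, its 3 coding neighbours on each side (1 is not reported here), 8 and 4 genes by likeness (mean CPM of 5 or more), and up to 4 called genes per list. Of 172 list genes, 169 were found by symbol and 2 by synonym. The 52 replicate pairs differed by at least 2.35 in chi-square per degree of freedom.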

Additional observations from a re-analysis of the deposited data

How the results depend on the processing

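Of 196 alternative values for Gdf3, 181 kept the direction and the side of the threshold or moved by less than the spread between libraries, and 0 reversed. They include Flt3 against WT, by which Gdf3 was chosen, and the time differences, both given as a description only. For these, a kept direction lends no support. The log2 fold change of Gdf3 in LSK over GMP was short of the threshold as fitted and past it with no filter on low counts, at -0.87 in WT and -1.47 at 2 weeks, and with the replicate block by sample code, at -0.93 and -1.28. It stayed short of it with DESeq2, at -0.65 in WT (adjusted p = 0.308) and -1.38 at 2 weeks (adjusted p = 0.155), and with median-ratio size factors in WT (-0.65, edgeR adjusted p = 0.146). Leaving out each library in turn gave -1.22 to -0.62 in WT (passing without WT LSK library 1 or WT GMP library 3) and -1.92 to -1.0 at 2 weeks (passing without Flt3 2-week GMP library 2 or LSK library 3). Flt3 against WT moved to -8.26 in LSK and -6.84 in GMP without the 2-week libraries, and over single libraries left out ranged from -6.99 to -5.47 in GMP and, at 4 weeks, from -8.13 to -6.18 in LSK. Npm1 Flt3 against Dnmt3a Flt3 GMP had a fitted value of 10.85 with the title-number replicate block, and TAM ranged from 3.14 to 4.08 over libraries left out. The time differences kept the permutation p, given as a description, at or under 0.0444 over all libraries left out. Since the groups do not overlap, each such p is the smallest possible and reflects the number of libraries only. The animal-code block and leaving out Dnmt3a Flt3 LSK library 2 gave no value for Gdf3 in Dnmt3a Flt3 mice. Among other named genes, Itm2b turned to 0.46 after TAM with library size alone. Of 1644 alternatives for 108 pathway calls, 1388 kept the call, 256 lost it and 0 reversed. Calls kept under every alternative were 6 of 9 for Flt3 against WT LSK and 4 of 7 for Flt3 against WT GMP. For Npm1 Flt3 against Dnmt3a Flt3 they were 1 of 11 in LSK and 3 of 14 in GMP, and after TAM 4 of 16.

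Codes and title numbers were not shown to pair libraries: residuals within pairs correlated at -0.06 to 0.22 for 14 WT and Flt3 code pairs, 0.10 to 0.32 for 3 Npm1 Flt3 code pairs and 0.08 to 0.23 for 3 TAM and vehicle number pairs. Counts of called genes moved by over 1.5 times with DESeq2 in Flt3 GMP (912, against 2393 with edgeR), 4-week Flt3 GMP (366 and 1364) and at 2 weeks (517 and 782), and upward in Npm1 Flt3 against Dnmt3a Flt3 LSK (4634 and 2251) and Npm1 Flt3 LSK against GMP (2188 and 980). Npm1 Flt3 against Dnmt3a Flt3 also moved with a 5 CPM filter (3496 in LSK), the title-number block (3465 in LSK, and 2127 in GMP against 3571 as fitted) and the libraries of conflicting code (3597 and 5403). Libraries left out took the counts down to 1557 in Flt3 GMP, 770 in 4-week Flt3 GMP, 433 in LSK and 992 in GMP for Npm1 Flt3 against Dnmt3a Flt3, 637 for Npm1 Flt3 LSK against GMP, and 5142 after TAM (7926 as fitted). The cause was not tested. A library with 0 counts of Gdf3 still allows 3 counts of its total, so levels of the first table at 4 to 8 weeks are not ordered.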
